A study of Homo sapiens with 8 samples.

Results

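The transcripts of 10 luminal breast transcription factors were followed in LY2 cells with and without knockdown of NCOA1, the gene of the steroid receptor coactivator SRC-1. The genes were chosen by symbol, as a list of regulators of luminal breast identity: GATA3, FOXA1, TFAP2A, TFAP2C, SPDEF, ELF3, ELF5, TBX3, TRPS1 and TOX3. All 10 were found among the 63677 genes of the deposited table, and 9 had at least 10 normalized reads in at least 4 of the 8 libraries and could be tested. TOX3 fell below that level.

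GATA3 and FOXA1 act with the estrogen receptor in luminal cells, FOXA1 as a pioneer factor that opens chromatin and GATA3 as a zinc finger factor that helps maintain the differentiated luminal state. TFAP2A and TFAP2C encode AP-2 factors, which bind as dimers near many estrogen receptor sites. SPDEF, ELF3 and ELF5 are epithelial members of the ETS family, and ELF5 directs the alveolar, milk-producing fate of luminal progenitors. TRPS1 is an atypical GATA factor that represses transcription, TBX3 is a T-box repressor needed for mammary gland formation, and TOX3 is a high mobility group box protein near a breast cancer risk locus.

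LY2 is an endocrine-resistant derivative of the MCF-7 breast cancer cell line. One group of 4 libraries came from cells with a stably expressed non-targeting hairpin (shNT), and the other group of 4 from cells with a stable hairpin against SRC-1 (shSRC1). Both lines were cultured in puromycin at 500 ng/mL to keep the hairpin, and with 4-hydroxytamoxifen (4-OHT) at 1e-08 mol/L. Before RNA was taken, both were depleted of steroids for 72 h and given 4-OHT at 1e-07 mol/L for 8 h, so no group without 4-OHT enters the comparison. The labels do not say how many hairpins or clones each line stands for, nor that replicates were separate cultures, so each p-value speaks of library-to-library spread, which may be technical.

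The values are normalized reads, the reads assigned to a gene divided by a size factor for the library. Recovered depth was 58459196 to 67022036 reads in the shNT libraries and 65321247 to 66248960 in shSRC1 replicates 1, 3 and 4, but 33771775 in shSRC1 replicate 2. NCOA1 was lower in shSRC1, at 4396 ± 137 normalized reads in shNT and 2036 ± 151 in shSRC1 (mean ± SD, n = 4 each). Its relatives NCOA2 (3681 ± 217 and 3599 ± 242) and NCOA3 (78065 ± 2351 and 66131 ± 4094) were not called in limma (adjusted p = 0.793 and 0.0548). The NCOA3 groups did not overlap, with shSRC1 lower (exact two-sided permutation p = 0.0286). Over 20 alternative settings, 1 to 2 of these 3 genes were called lower. ESR1, which encodes the estrogen receptor, was at 20472 ± 349 and 18728 ± 946, with a log2 fold change of -0.13 that limma did not call (adjusted p = 0.233). Its groups did not overlap, at 20050 to 20796 in shNT and 17779 to 19784 in shSRC1 (exact two-sided permutation p = 0.0286). Of all tested genes, 12.1% were lower in shSRC1 without overlap. Markers of luminal epithelium summed to 440749 to 572428 normalized reads in shNT libraries and 666114 to 742144 in shSRC1 libraries. The main increase came from the keratins KRT8, KRT18 and KRT19, and 13 of the 22 markers were not called. Of the basal keratins, KRT14 averaged 1.13 normalized reads in shNT and 1.10 in shSRC1, KRT5 4.83 and 14.3, KRT6B 0.679 and 1.79, and KRT17, the only one tested, 9.07 and 5.34, not called. CD3D and MS4A1, which define T and B lymphocytes, had no read in any library. In shNT replicate 3 the median ribosomal protein gene lay 0.69 below its mean over all libraries on the log2 scale, against 0.02 to 0.19 below in the other shNT libraries and 0.20 to 0.29 above it in shSRC1. The part of these library differences in the results below was not tested, except where values without a library are given.

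Of the 9 tested genes, 3 fell in shSRC1 cells (TRPS1, ELF5 and TFAP2A), 0 rose and 6 did not pass the threshold, an adjusted p under 0.05 in limma over all 19559 tested genes. At an unadjusted p under 0.05 in limma, 1 gene (GATA3) was higher, and neither edgeR nor DESeq2 called any of the 9 higher. Over all tested genes, 23.2% were called, 11.2% lower and 12.0% higher. The median log2 fold change of the 9 was -0.11, and that of all tested genes was -0.0025. In 4 of the 9 genes the groups did not overlap, all 4 lower in shSRC1 (TBX3 was the fourth), and over all tested genes 12.1% were lower without overlap. The count was also 3 lower and 0 higher under each of 20 alternative settings, and TRPS1, ELF5 and TFAP2A were called in every one, with adjusted p values up to 0.00681. The share of all genes called in either direction was 23.7% in edgeR, 27.2% in DESeq2, 32.7% in limma with a replicate block and 27.8% in limma with a correction for length and GC content. In bulk RNA, fewer cells that express a gene and less RNA per cell cannot be told apart.

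**Figure D1:**
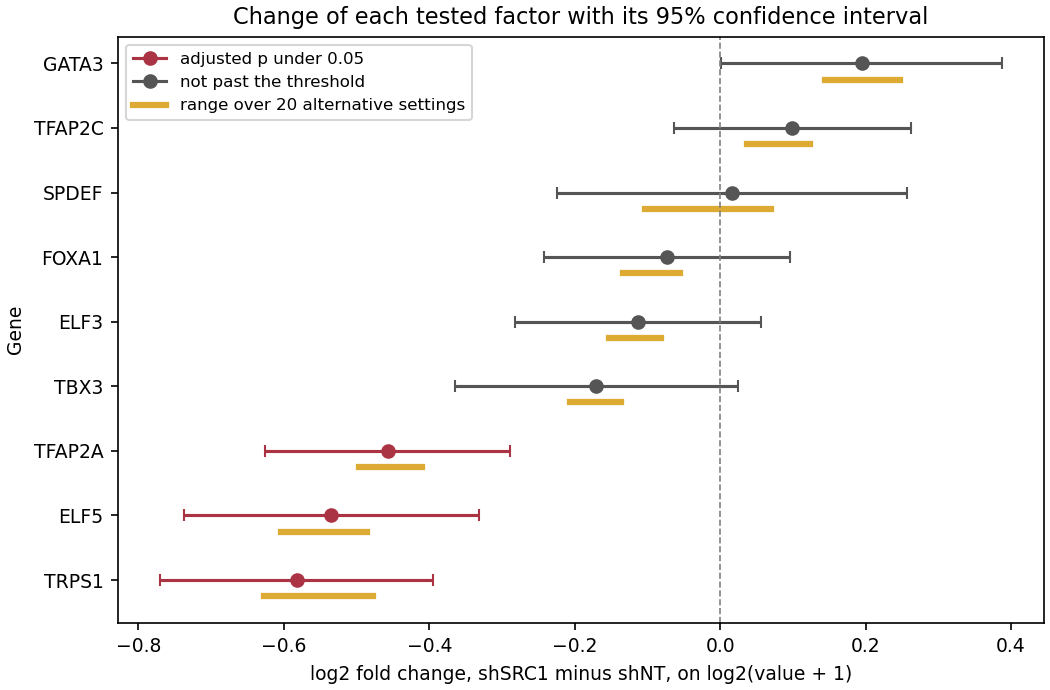
Log2 fold change of each tested factor, shSRC1 minus shNT on the log2(value + 1) scale, with its 95% confidence interval from limma (n = 4 libraries a group) and, in yellow, the range of the estimate over 20 alternative settings. The intervals of TRPS1 (-0.77 to -0.40), ELF5 (-0.74 to -0.33) and TFAP2A (-0.63 to -0.29) lie below 0, and SPDEF is the only factor whose yellow range spans 0.

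Levels of different genes were compared as normalized reads per kilobase of the longest annotated transcript. GATA3 stood highest in shNT at 10087 ± 815 per kilobase, followed by SPDEF at 8848 ± 1363 and FOXA1 at 7936 ± 463. The library ranges of GATA3 and SPDEF overlapped, as did those of SPDEF and FOXA1, so the order of these neighbours is not resolved. TFAP2C followed at 3221 ± 167 per kilobase and TFAP2A at 1987 ± 113, each clear of its neighbours. Below them lay TRPS1 at 1025 ± 69.7, ELF5 at 802 ± 70.0, ELF3 at 571 ± 36.2 and TBX3 at 135 ± 1.45 per kilobase. TOX3 came last at 0.136. In shSRC1 the order was the same, but the library ranges of TRPS1 (685 ± 63.4 per kilobase) and ELF5 (554 ± 58.1) overlapped, and so did those of ELF5 and ELF3 (527 ± 25.2). The place of ELF3 rests on the length used: its coding transcripts of 2044, 3179 and 4994 bases give 1394, 896 and 571 reads per kilobase in shNT.

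**Figure D2:**
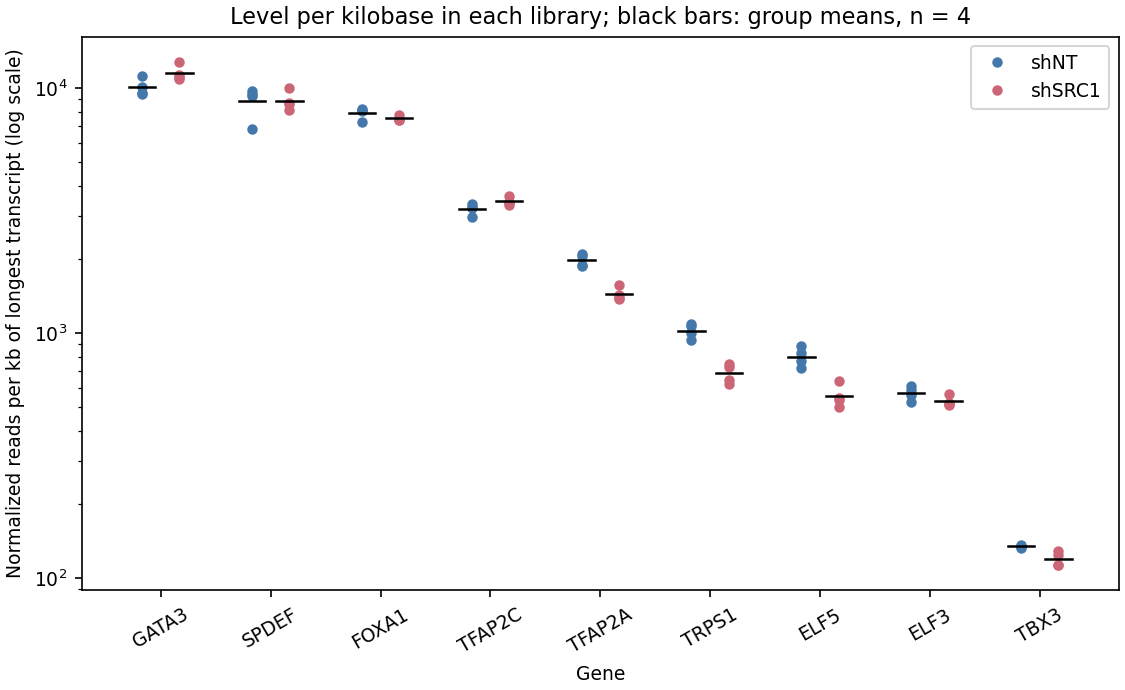
Normalized reads per kilobase of longest transcript for the 9 tested factors in every library, on a log axis, with shNT in blue, shSRC1 in red and group means as black bars (n = 4). GATA3, SPDEF and FOXA1 sit at the top, TBX3 at the bottom, and the ranges of TRPS1 and ELF5, and of ELF5 and ELF3, overlap in shSRC1 and not in shNT.

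TRPS1 (ENSG00000104447, chromosome 8) had the largest log2 fold change of the 9 in the main test. Its values in shNT replicates 1 to 4 were 9379.8, 9967, 10702 and 10894 normalized reads, and in shSRC1 replicates 1 to 4 they were 6437, 6181, 7486 and 7275. Every shSRC1 library was below every shNT library. The means were 10236 ± 697 and 6845 ± 633. The mean fell by 33.1%, with a log2 fold change of -0.58 (SE 0.09, adjusted p = 0.000371 in limma). The exact two-sided permutation test on normalized reads gave p = 0.0286, the smallest that 4 libraries against 4 can give. TRPS1 has a longest transcript of 9990 bases, above 96.8% of tested genes with a known length. Its GC content of 40.1% is higher than in 15.3% of those genes. The association of levels with GC content differed between libraries, with Spearman rho across genes from -0.22 to 0.48, and with a correction for length and GC content the log2 fold change of TRPS1 was -0.48 (SE 0.06, adjusted p = 0.000148 in limma). With that correction ELF5 (-0.55) and TFAP2A (-0.50) had larger changes than TRPS1. ENSG00000227170, an antisense gene within TRPS1, had 4 reads in all shNT libraries and 2 in all shSRC1 libraries.

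ELF5 (ENSG00000135374, chromosome 11) fell by a similar amount. The shNT libraries held 1769.6, 2025, 1893 and 2168 normalized reads of ELF5, and the shSRC1 libraries 1309, 1229.9, 1329 and 1561. The groups did not overlap, and the highest shSRC1 value was in replicate 4. The mean fell by 30.9%, from 1964 ± 172 to 1357 ± 142, and the log2 fold change was -0.53 (SE 0.10, adjusted p = 0.00135 in limma). The exact two-sided permutation p was 0.0286. Milk protein genes that ELF5 drives in the lactating gland were silent here: CSN1S1, CSN2 and CSN3 had no read in any library. EHF, the ETS paralogue that lies next to ELF5 on the chromosome, was at 1062 ± 123 normalized reads in shNT and 1343 ± 201 in shSRC1, with a log2 fold change of 0.33 (SE 0.12) that did not pass the threshold in limma (adjusted p = 0.0502). The EHF groups did not overlap (879 to 1138 in shNT, 1150 to 1588 in shSRC1), with an exact two-sided permutation p of 0.0286. CAT, the neighbour of ELF5 on the other side, had a log2 fold change of 0.11 and was not called.

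TFAP2A (ENSG00000137203, chromosome 6) was the third gene to fall, while its paralogue TFAP2C was not called. TFAP2A stood at 7926, 7185, 8035 and 7293 normalized reads in shNT and at 6014, 5303, 5502 and 5352 in shSRC1. Each shSRC1 library lay below the lowest shNT library. The mean fell by 27.2%, from 7610 ± 433 to 5543 ± 326, with a log2 fold change of -0.46 (SE 0.08, adjusted p = 0.00107 in limma and exact two-sided permutation p = 0.0286). TFAP2C (ENSG00000087510, chromosome 20) was at 9687, 9286, 8557 and 9393 normalized reads in shNT and at 10374, 9552, 9759 and 9851 in shSRC1. Only shNT replicate 1 reached into the shSRC1 range. The log2 fold change of TFAP2C was 0.10 (95% confidence interval -0.06 to 0.26, adjusted p = 0.356 in limma). The ratio of TFAP2C to TFAP2A per kilobase was 1.63, 1.73, 1.42 and 1.72 in the shNT libraries and 2.30, 2.41, 2.37 and 2.46 in the shSRC1 libraries. TFAP2C was thus the more abundant AP-2 transcript per kilobase in every library of both groups. The sum of both was 5208 ± 166 per kilobase in shNT and 4896 ± 204 in shSRC1, and its ranges overlapped (5084 to 5450 and 4718 to 5190). These ratios and sums are descriptions and were not tested. TFAP2A-AS1, an antisense RNA that overlaps TFAP2A, was at 89.0 ± 7.20 and 83.5 ± 14.5 normalized reads and was not called.

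For the start regions of the 2 genes among the 3 that fell for which the RefSeq table holds a window, the sequence upstream is shown, since it holds short matches to sites of factors in this list or of the estrogen receptor. All are RefSeq sequences on GRCh38.p14, written 5′ to 3′ on the strand of the gene, and the files themselves were made on GRCh37. For TFAP2A, the first window (chr6:10419660-10419909, minus strand, 250 bases before the start) has AGGTCA in capitals, an arm of the estrogen response element, 11 bases before the start. The second window of TFAP2A (chr6:10412392-10412641, minus strand) has CTTCCT in capitals, the ETS core AGGAAG read on the other strand, at 172, 94 and 70 bases before the start. The first 40 bases of that second window lie in an exon of another TFAP2A transcript. For ELF5 (chr11:34511829-34511974, minus strand, 146 bases), GTAAACA in capitals is the FOXA motif TGTTTAC on the other strand, 193 bases before the start. AGGAAG in capitals lies 110 bases before the start. The ELF5 stretch stops at the edge of an ELF5 exon in the GENCODE annotation. It thus ends short of the RefSeq start at 34511724, from which both distances are counted.
TFAP2A first window: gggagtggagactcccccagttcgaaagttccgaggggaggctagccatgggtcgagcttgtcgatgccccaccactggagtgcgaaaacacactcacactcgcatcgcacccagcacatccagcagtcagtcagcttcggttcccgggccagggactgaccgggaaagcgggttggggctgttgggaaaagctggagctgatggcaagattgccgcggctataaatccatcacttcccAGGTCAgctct
TFAP2A second window: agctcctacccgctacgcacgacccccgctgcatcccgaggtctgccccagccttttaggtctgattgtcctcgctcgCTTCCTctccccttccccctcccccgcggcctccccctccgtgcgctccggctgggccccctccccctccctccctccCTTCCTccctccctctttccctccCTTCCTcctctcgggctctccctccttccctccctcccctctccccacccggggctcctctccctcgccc
ELF5 window: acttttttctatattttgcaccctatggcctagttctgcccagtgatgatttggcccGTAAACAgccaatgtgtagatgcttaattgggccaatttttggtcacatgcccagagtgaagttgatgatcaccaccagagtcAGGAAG
Such short matches are common. Over 35093 windows of 250 bases, searched on both strands, 12.1% held AGGTCA, 28.7% AGGAAG and 2.98% TGTTTAC. The full palindromic estrogen response element, which contains AGGTCA, was in 0.0256% of windows and in none of these. A match is a description of letters and not a bound site. Of the windows not shown for genes other than GATA3, that of SPDEF held AGGAAG 42 bases before the start, and those of FOXA1 and ELF3 held none of the motifs searched. Those were the AP-2 site GCCNNNGGC, the GATA sites AGATAA and TGATAA, the ETS sites CCGGAA (in 14.5% of windows) and AGGAAG, the FOXA site TGTTTAC, the estrogen response element and its arm AGGTCA. RefSeq windows were available for GATA3, FOXA1, TFAP2A, SPDEF, ELF3 and ELF5, and TFAP2C, TBX3, TRPS1 and TOX3 had none in the table.

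GATA3 (ENSG00000107485, chromosome 10), among the most abundant genes of these cells, was not called. It stood at 35082, 29522, 31538 and 29862 normalized reads in shNT and at 39971, 34128, 35465 and 34571 in shSRC1. The groups overlapped because shNT replicate 1 was above shSRC1 replicates 2 and 4. Replicate 1 was the highest library in each group. The mean was 31501 ± 2544 in shNT and 14.4% higher in shSRC1, at 36034 ± 2683, a difference that limma did not call (log2 fold change 0.19, 95% confidence interval 0.0018 to 0.39, adjusted p = 0.130). The ratio of GATA3 to TRPS1, both GATA family genes, was 12.0, 9.48, 9.43 and 8.77 per kilobase in shNT and 19.9, 17.7, 15.2 and 15.2 in shSRC1, with no overlap and no test. Its ratio to FOXA1 per kilobase was 1.27 ± 0.122 in shNT and 1.53 ± 0.0804 in shSRC1. Within each group, replicate 1 also had the most positive association of level with GC content, at a Spearman rho across genes of 0.18 in shNT and 0.48 in shSRC1, and with a correction for length and GC content the log2 fold change of GATA3 was 0.15 (adjusted p = 0.135 in limma).

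The antisense transcript at the same locus moved further. GATA3-AS1 (ENSG00000197308), a long noncoding RNA read from the opposite strand and overlapping the gene, was at 746, 766, 593 and 793 normalized reads in shNT and at 1599.7, 1473, 1676 and 1548 in shSRC1. The groups were far apart, with means of 725 ± 89.6 and 1574 ± 85.4. GATA3-AS1 rose with a log2 fold change of 1.13 (SE 0.10, adjusted p = 2.70e-06 in limma), and its level as a share of that of GATA3 went from 2.30% to 4.37%. A further noncoding gene on the strand of GATA3, ENSG00000232638, rose as well, from 64.8 ± 6.21 to 129.8 ± 9.21 normalized reads, with a log2 fold change of 0.99 (adjusted p = 0.000577 in limma). The library kit is not described as stranded, so reads of GATA3 and of these overlapping genes cannot be told apart where they overlap.

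**Figure D3:**
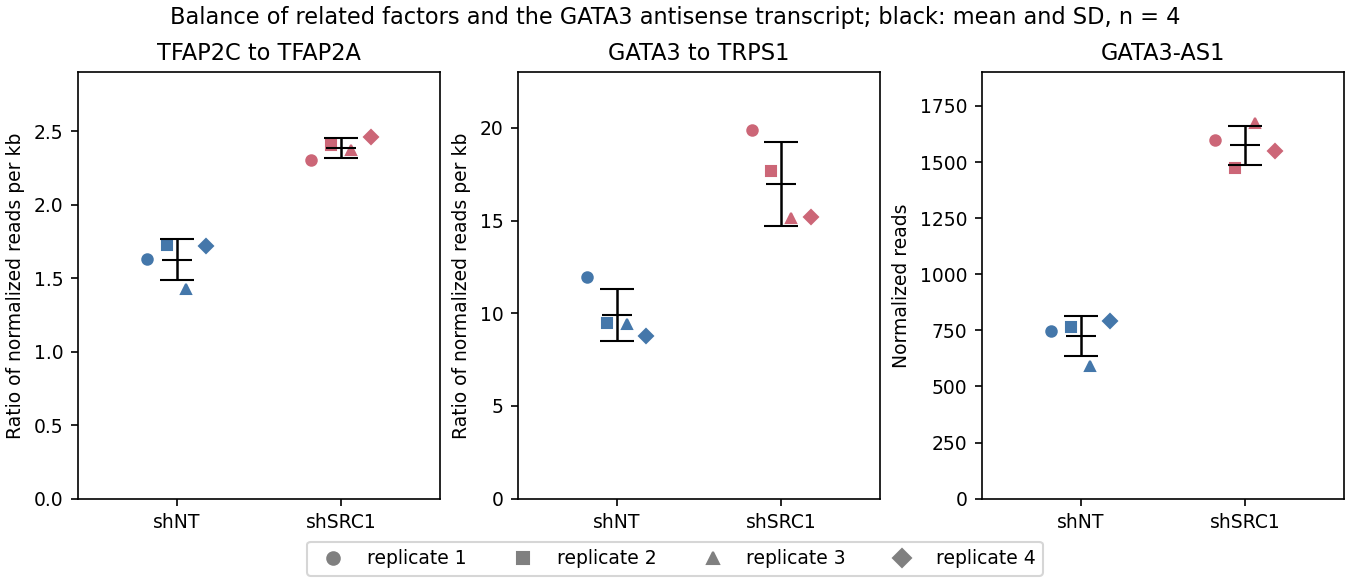
Per-library values with mean and SD (n = 4) for the TFAP2C to TFAP2A ratio and the GATA3 to TRPS1 ratio, both of normalized reads per kilobase, and for normalized reads of GATA3-AS1. The TFAP2C to TFAP2A ratio lies between 1.42 and 1.73 in shNT and between 2.30 and 2.46 in shSRC1, and in the other 2 panels every shSRC1 library is above every shNT library.

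This GATA3 start region is shown because the nearest of 3 annotated starts of GATA3-AS1 lies within it on the opposite strand. In the stretch chr10:8053391-8053603 (plus strand, RefSeq, GRCh38.p14), the capitals mark 119 bases after the nearest GATA3-AS1 start at 8053484. They end where a GATA3 exon begins in the GENCODE annotation, at 8053604. The RefSeq start of this window is at 8053641.
GATA3 start region: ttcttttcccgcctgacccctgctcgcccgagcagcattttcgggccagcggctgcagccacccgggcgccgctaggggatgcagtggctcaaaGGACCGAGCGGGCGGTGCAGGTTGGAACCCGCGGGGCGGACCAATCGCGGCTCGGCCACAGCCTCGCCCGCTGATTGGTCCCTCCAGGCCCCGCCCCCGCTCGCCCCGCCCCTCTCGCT
This stretch holds 1 match to the AP-2 motif GCCNNNGGC, 206 bases before the RefSeq start used for that window, and 19.8% of all windows hold one. Of the other 5 GATA3 windows, not shown, the first held an AP-2 match, CCGGAA and AGGAAG, the fifth an AP-2 match and CCGGAA, and the rest none of the motifs searched. No GATA motif was found in this window, with AGATAA present in 9.17% of all windows and TGATAA in 6.66%.

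FOXA1 (ENSG00000129514, chromosome 14) was not called. It was at 23568, 23177, 20739 and 23369 normalized reads in shNT and at 22219.7, 21206, 21512 and 21321 in shSRC1. The lowest value of all 8 libraries was in shNT replicate 3, and the groups overlapped. The log2 fold change was -0.07, with a 95% confidence interval of -0.24 to 0.10 (adjusted p = 0.524 in limma). TTC6, which overlaps FOXA1 on the opposite strand, was not called.

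SPDEF (ENSG00000124664, chromosome 6), an ETS factor of secretory and luminal cells, was at 17965, 17634, 12934 and 18536 normalized reads in shNT and at 18991, 16369, 16506 and 15509 in shSRC1. Its shNT replicate 3 value stood well below the others. The log2 fold change was 0.02 (95% confidence interval -0.22 to 0.26, adjusted p = 0.927 in limma), and without shNT replicate 3 it was -0.10 (adjusted p = 0.322 in limma), so SPDEF had no settled direction.

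ELF3 (ENSG00000163435, chromosome 1) was at 2931, 3043, 2622 and 2803 normalized reads in shNT and at 2822, 2574, 2554 and 2584 in shSRC1. The groups overlapped because shSRC1 replicate 1 was above shNT replicates 3 and 4. The log2 fold change was -0.11 (95% confidence interval -0.28 to 0.06, adjusted p = 0.311 in limma). GPR37L1, the next tested protein-coding gene along the chromosome, fell with a log2 fold change of -0.70.

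TBX3 (ENSG00000135111, chromosome 12) was at 628, 639.7, 644 and 635 normalized reads in shNT and at 610.5, 534, 534 and 589 in shSRC1. The groups did not overlap, with all shNT values close together. The log2 fold change was -0.17 (95% confidence interval -0.36 to 0.02). The exact two-sided permutation test reached its smallest possible p of 0.0286, but limma over all genes did not call it (adjusted p = 0.187). Over all tested genes, 29.0% had groups without overlap in either direction.

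TOX3 (ENSG00000103460, chromosome 16) was nearly silent. Its recovered reads were 1, 0, 1 and 0 in shNT and 1, 8, 3 and 5 in shSRC1. The highest count came from shSRC1 replicate 2, the library with the lowest depth. Over each group this made 2 reads (exact 95% Poisson interval 0.242 to 7.22) and 17 reads (9.90 to 27.2), and the ratio of normalized levels was 9.79 with an exact 95% counting interval of 2.32 to 87.3. This interval covers counting error only, not the spread between libraries. With no filter on low values, the log2 fold change of TOX3 in limma was 1.84 (adjusted p = 0.0645).

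**Figure D4:**
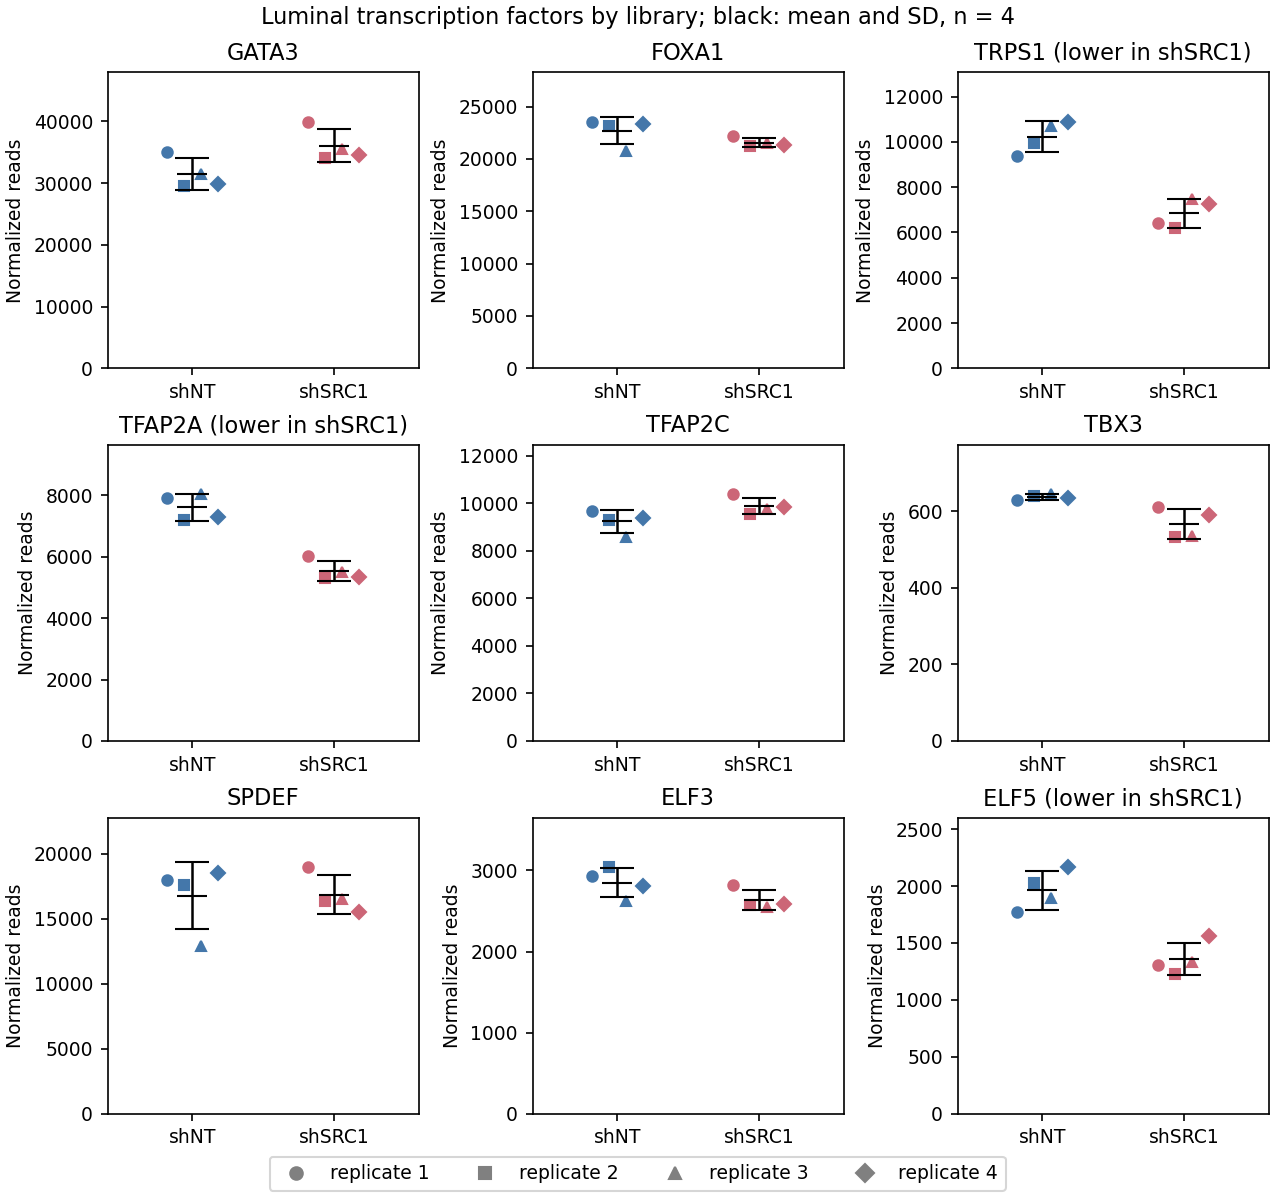
Normalized reads of the 9 tested factors in every library, with 1 marker shape per replicate and the mean and SD of each group (n = 4) in black. The shSRC1 points of TRPS1, ELF5, TFAP2A and TBX3 lie below all shNT points, and shNT replicate 3 of SPDEF (12934) lies below the rest of its group (17634 to 18536).

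Across the 8 libraries, the genes whose level moved most like those that fell were found by Pearson correlation of log2 values among 13626 genes. The libraries share their group, so each value reflects the difference between the groups as well as the spread within them. RASGRF1 (r = 0.996) and ABCC3, a drug and bile salt exporter (r = 0.995), were nearest to TFAP2A. GRAMD1C (r = 0.994) and CCDC6 (r = 0.988) were nearest to ELF5. MARCH6 (r = 0.996) and CROT (r = 0.996), a peroxisomal carnitine acyltransferase, were nearest to TRPS1. Among the factors themselves, TRPS1 and ELF5 were the most alike of the 3 that fell (r = 0.95), and GATA3 ran against ELF5 (r = -0.80).

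The genes beside each factor on its chromosome were compared over the 10 nearest tested protein-coding genes on each side. Around TRPS1 the median log2 fold change of the 20 neighbours was -0.04, and none was below TRPS1 itself. The closest was EMC2, which also fell, with a log2 fold change of -0.57 against -0.58 for TRPS1. Around ELF5 the median was -0.03, and none was below ELF5. Around TFAP2A the median was -0.23, with 7 of 20 called lower and 13 not called, against 11.2% called lower over all genes, and 2 of 20 were below TFAP2A. Among the 7 called lower, SLC35B3, next to TFAP2A, fell with a log2 fold change of -0.32 (adjusted p = 0.0218 in limma). The neighbours of GATA3 had a median of -0.18 with 6 of 20 called lower, and all 20 lay below GATA3. Around TOX3 the median was 0.19, with 7 of 20 called higher and 1 lower, against 12.0% called higher over all genes. Neighbours called higher and lower were 4 and 1 for ELF5, 4 and 1 for FOXA1, 3 and 2 for TFAP2C and 2 and 3 for TRPS1. They were 1 and 0 for SPDEF, and 0 and 2 for both ELF3 and TBX3. BMP7, next to TFAP2C, rose from 15671 ± 1814 to 26987 ± 2638 normalized reads (log2 fold change 0.79, adjusted p = 9.66e-05 in limma). These counts are descriptions, and their cause was not tested.

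**Figure D5:**
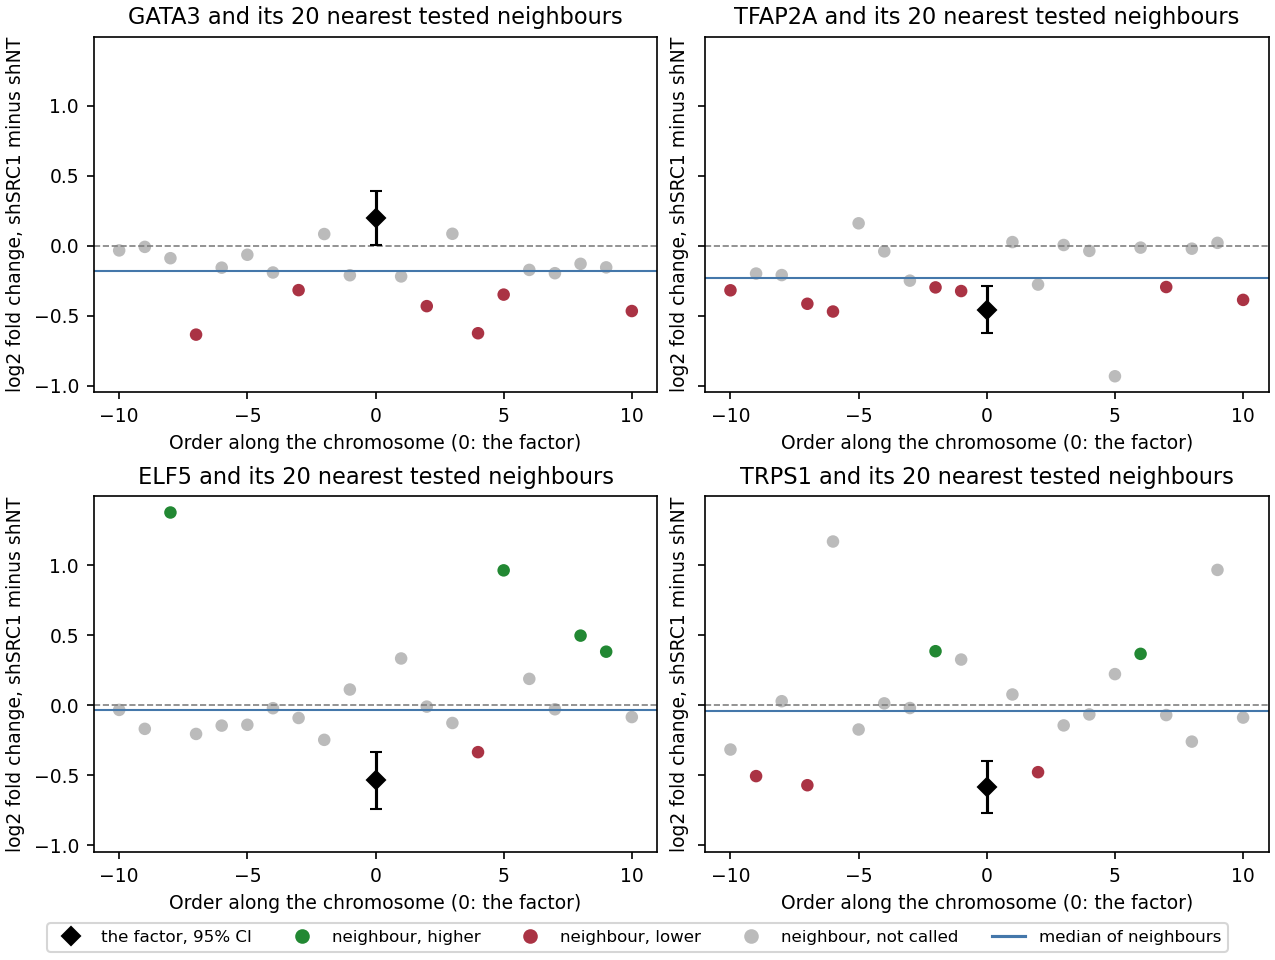
Log2 fold change (shSRC1 minus shNT) of GATA3, TFAP2A, ELF5 and TRPS1 (black, with 95% confidence interval) and of the 10 nearest tested protein-coding genes on each side, in chromosome order, coloured by call, with a blue line at the median of the 20 neighbours. TRPS1 and ELF5 lie below all 20 neighbours, GATA3 lies above all 20, and TFAP2A has 2 neighbours below it.

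Among 20 paralogues of the factors, 15 were tested, 1 rose, 1 fell and 13 were not called, with a median log2 fold change of -0.03. By comparison, 12.0% of all tested genes rose and 11.2% fell. GATA2, a hematopoietic and endothelial GATA factor also present in breast cells, rose from 411 ± 34.7 to 592 ± 82.1 normalized reads (log2 fold change 0.52, adjusted p = 0.00556 in limma). TFAP2E fell from 38.2 ± 3.69 to 21.8 ± 5.81 (log2 fold change -0.82, adjusted p = 0.0400 in limma), a call lost in 8 of 20 alternatives, among them leaving out any shNT library, shSRC1 replicate 1 or shSRC1 replicate 3. The count of paralogues that rose was 1 to 4 over the alternatives and above 1 in 13 of 20: it was 4 in DESeq2 and with a replicate block, and 2 with TMM or upper-quartile scaling and without shNT replicate 2, shNT replicate 3, shSRC1 replicate 1 or shSRC1 replicate 3. TBX2, the close relative of TBX3, was at 12978 ± 1284 and 12696 ± 1179 normalized reads and was not called.

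Of 12 partners and cofactors of the factors, 5 rose, 0 fell and 7 were not called, with a median log2 fold change of 0.25. The shares over all tested genes were 12.0% higher and 11.2% lower. None of the 12 was lower at an unadjusted p under 0.05 in limma, or called lower in edgeR or DESeq2. The count that rose was 3 without shSRC1 replicate 1, also 3 without shSRC1 replicate 2, and 8 with a replicate block and the correction for length and GC content. With a replicate block alone, 32.7% of all tested genes were called in either direction. CITED2, a transcriptional coactivator that works with AP-2 factors, rose from 1364 ± 176 to 3009 ± 74.3 normalized reads (log2 fold change 1.15, adjusted p = 1.21e-06 in limma). CITED1, of the same family, rose from 4.93 ± 5.19 to 57.7 ± 13.3 normalized reads, and ZFPM1, a GATA cofactor, from 1200.0 ± 88.2 to 1567 ± 238. 

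Of 18 other transcription factors linked to the luminal state or the estrogen receptor, 6 rose, 3 fell and 9 were not called, with a median of 0.16. Among all tested genes, 12.0% rose and 11.2% fell. NR2F2, an orphan nuclear receptor, rose from 36.0 ± 7.69 to 236 ± 26.0 normalized reads (log2 fold change 2.69, adjusted p = 1.45e-07 in limma). MYB, an estrogen-responsive factor, rose with a log2 fold change of 0.66. KLF5 fell with a log2 fold change of -0.50 and GRHL1 with one of -0.51, both epithelial factors. Among 14 basal and mesenchymal factors, 7 were tested: TP63, the p63 gene of basal cells, rose from 55.5 ± 8.28 to 115 ± 16.2 normalized reads and FOSL1 fell from 396 ± 20.7 to 196 ± 33.9. A second gene of that list was called higher without shNT replicate 2 or without shSRC1 replicate 1. The 5 other tested factors of that list were not called. SNAI1 averaged 82.2 normalized reads in shNT and 62.8 in shSRC1, SOX9 67.2 and 48.6, and FOXC1 70.1 and 78.5. ID4 averaged 64.5 and 101, and ZEB1 15.3 and 12.4. Of the untested ones, SOX10 averaged 3.85 and 3.61, ZEB2 3.85 and 4.74, and ETS1 2.48 and 1.14. The basal and mesenchymal factors SNAI2, EN1, TWIST1 and BCL11A averaged under 1 normalized read in each group.

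Of 20 genes known as linked to the factors, 14 were tested, 5 rose, 2 fell and 7 were not called. The lists share genes: of those that rose, XBP1 is also counted among the other luminal factors above. AGR2 and KRT18 are also counted among the luminal markers below, as are ERBB3, TFF1 and TFF3, which were not called. The background shares were 12.0% higher and 11.2% lower over all tested genes. RET, a receptor tyrosine kinase and a reported AP-2 target, fell from 6728 ± 341 to 4037 ± 165 normalized reads (log2 fold change -0.74, adjusted p = 1.10e-05 in limma). ERBB2 and ERBB3, receptor kinases with AP-2 sites, were not called, with log2 fold changes of 0.11 and -0.11. AGR2, a secretory protein disulfide isomerase, rose from 14229 ± 2231 to 25094 ± 3053, and CCND1 and CDKN1A, which act in the cell cycle, rose with log2 fold changes of 0.45 and 0.60.

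Luminal epithelial markers included 8 that rose, 1 that fell and 13 not called of 22. For this and the next lists, the shares over all tested genes were 12.0% higher and 11.2% lower. SLC39A6, a zinc transporter induced by estrogen, rose from 6439 ± 344 to 13116 ± 1677 normalized reads (log2 fold change 1.02, adjusted p = 4.17e-06 in limma), and the keratins KRT8, KRT18 and KRT19 rose as well. MUC1 fell from 3652 ± 1444 to 1699 ± 374, a call lost without shNT replicate 1 and without shSRC1 replicate 2, 3 or 4, and 3 of these markers were called lower without shNT replicate 3. Over the 20 alternatives, 0 to 5 luminal markers were called lower, a count that moved in 14 of them, and 7 to 8 were called higher. Of 12 tested basal and myoepithelial markers, 1 rose and 4 fell, but none was called lower without shNT replicate 1, 1 without shSRC1 replicate 4 and 2 without shSRC1 replicate 2 or 3. CAV1 rose, and CDH3 and ITGB4 were among those called lower. The summed level of the basal list was 13797 to 15957 normalized reads in shNT and 11327 to 13872 in shSRC1. Of 5 tested fibroblast markers 0 were called in limma, edgeR or DESeq2, and 0 had an unadjusted p under 0.05 in limma. In limma with a replicate block, with or without the correction for length and GC content, 1 of them was called lower. Their list summed to 1640 to 2188 normalized reads in shNT and 1452 to 1979 in shSRC1. Most of this was COL1A1, at 1810 ± 254 and 1552 ± 235, and the next highest marker was COL3A1, at 48.1 and 33.7. Of 9 leukocyte markers, 1 was tested and not called.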

How the data were processed

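The authors deposited 1 table of 63677 genes by 8 libraries of poly(A)-selected RNA, in which each value is a signal: reads of a gene over a library size factor. The submitters' processing notes name GRCh37, TopHat2 2.0.12, HTSeq 0.6.1, DESeq and DESeq2, and the counting options and gene models are not given in the sources used. Whole reads were recovered from the value steps, with 100% of values whole within 0.001 reads. Per the labels' protocols, libraries were made with a TruSeq RNA kit.

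The main test was limma 3.58.1 (R 4.3.3) with trend and robust variances on log2(value + 1), for the 19559 genes that reached 10 normalized reads in 4 or more libraries, without a replicate block, two-sided and Benjamini-Hochberg adjusted over all of them, with a threshold of 0.05. Fold changes on this scale understate changes of low genes. Alternatives included edgeR 4.0.16 and DESeq2 1.42.0 on the recovered reads, other scalings, filters, pseudocounts and leaving out libraries. GENCODE 29 (GRCh38), a build other than that of the table, gave gene order, length and GC content for 18787 genes, joined by Ensembl identifier.

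The factors, lists and tests were chosen with earlier results of these data known. Named genes were all 10 factors, NCOA1, NCOA2, NCOA3 and ESR1, and up to 4 called members of each list by smallest adjusted p. The rule also took the nearest neighbours and the 2 most similar genes of each called factor. Other genes were named after their values were seen, and some genes that the rule takes are left out of the text. The Poisson and ratio intervals of TOX3 cover counting error only, and PCR copies cannot be told from separate molecules. All other intervals are from limma and rest on the spread between libraries.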

Additional observations from a re-analysis of the deposited data

Results flagged for a closer look

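Among 22 groups of 4 library values examined for a library far from the others, 3 had a highest or lowest value whose gap to the next was above the 95% critical share of the group's range (Dixon's test), and chance gives about 1 in 20 groups. FOXA1 was lowest in shNT replicate 3, at 20739 normalized reads against 23177 to 23568 in the other shNT libraries. SPDEF was lowest in the same library, at 12934 against 17634 to 18536. ELF3 was highest in shSRC1 replicate 1, at 2822 against 2554 to 2584.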

How the results depend on the processing

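Over 20 alternatives, TRPS1 (log2 fold change -0.63 to -0.48), ELF5 (-0.60 to -0.49) and TFAP2A (-0.50 to -0.41) kept their direction and passed the threshold in every one, and the other tested factors passed in none. SPDEF changed sign in 7: it was -0.016 with the length and GC correction, also with the replicate block, -0.091 without shNT replicate 3 and shSRC1 replicate 2 together, -0.0025 in edgeR and -0.0013 in DESeq2, and with single libraries left out it ranged from -0.10 to 0.070. Leaving out 1 library moved the count of all genes called lower between 1453 (without shSRC1 replicate 2) and 2291, and higher between 1688 and 2524. Deviation correlations between same-numbered libraries were 0.24, -0.01, 0.13 and 0.14 for replicates 1 to 4. For shNT replicates 1, 3 and 4 the most similar shSRC1 library had the same number, and for shNT replicate 2 it was replicate 4. These values do not settle whether the libraries are paired, and the main test was planned without a replicate block. With a replicate block, 3 factors were called lower, and 6398 genes were called in all against 4538. At a few reads a library, TOX3 was tested only without the filter.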
